A study of Mus musculus with 6 samples.

Results

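The 10 genes described here encode light chains of conventional myosin, the motor protein of muscle and of the cell cortex. They were picked out by gene symbol (Myl1, Myl2, Myl3, Myl4, Myl6, Myl6b, Myl7, Myl9, Myl10 and Mylpf), from 19505 symbols on the array, and each is measured by 1 probe set. The gene family was chosen with earlier results of these data known, so its shares beside those of all probe sets are descriptions. The study put RNA from samples labelled colon of C57BL/6J mice on 6 Affymetrix arrays, 3 per group, to look for genes that differ after treatment. One group received MBELN by gavage on each of 7 days, in doses of 100 µl. MBELN are exosome-like nanoparticles made from mulberry bark. The other group is labelled control mice, with PBS in the sample titles. The labels give no age, and nothing in them ties an array to its own animal. The spread that p-values are judged against is therefore that of these samples alone and may be technical. It also holds the differences in tissue genes between arrays of the same group, given below. Arrays are called control 1 to 3 and MBELN 1 to 3 after their titles.

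A conventional myosin has a pair of heavy chains, each with a motor head and a long neck that binds an essential and a regulatory light chain. The essential chain stiffens the neck as a lever arm. The regulatory chain can be phosphorylated by myosin light chain kinase, which switches contraction on in smooth muscle and tunes its force in heart and skeletal muscle. Different muscles use different genes for both chains. Atrial muscle uses Myl4 (essential) and Myl7 (regulatory). Ventricular muscle uses Myl3 (essential) and Myl2 (regulatory), and slow skeletal fibres use the same pair. Fast skeletal fibres use Myl1 and Mylpf, and smooth muscle uses Myl6 and Myl9, which non-muscle cells also use. In colon the smooth muscle pair is the one known from the muscle coat of the wall.

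The arrays did not all carry genes of the labelled tissue, which bears on every group comparison below. A value counted as above background when it exceeded the 95th percentile of the negative-control rows of its own array, a threshold between 7.93 and 10.11 on the log2 scale. Of 12 colon epithelium markers, 10 were above background on control 1 and 0 or 1 on each other array. All 9 measured brain markers were above it on control 3, 9 of 10 heart muscle markers on MBELN 1, 8 of 9 squamous epithelium markers on MBELN 2 and all 10 liver markers on MBELN 3. Control 2 was flat: 0.311% of its probe sets and 0 of 11 housekeeping genes were above background, and its values had a standard deviation of 1.19, against 2.55 to 2.85 on the other arrays. In bulk RNA, fewer cells of a type and less RNA per cell cannot be told apart.

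The sequence before the start of 1 gene of each isoform class is shown here. The windows are the 250 bases before the RefSeq start, in the mouse assembly GRCm38.p6, printed 5′ to 3′ on the strand of the gene. Capitals mark a CArG box, the element bound by serum response factor, which drives many contractile genes. The window of Myl7 is chr11:5898783-5899032 (minus strand), that of Myl3 chr9:110763428-110763677 (plus), that of Mylpf chr7:127211358-127211607 (plus) and that of Myl9 chr2:156775214-156775463 (plus).
Myl7: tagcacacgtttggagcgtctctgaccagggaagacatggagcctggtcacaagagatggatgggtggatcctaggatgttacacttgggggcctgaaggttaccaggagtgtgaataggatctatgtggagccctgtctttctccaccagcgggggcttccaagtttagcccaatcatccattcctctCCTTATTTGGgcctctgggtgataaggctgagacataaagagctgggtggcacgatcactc
Myl3: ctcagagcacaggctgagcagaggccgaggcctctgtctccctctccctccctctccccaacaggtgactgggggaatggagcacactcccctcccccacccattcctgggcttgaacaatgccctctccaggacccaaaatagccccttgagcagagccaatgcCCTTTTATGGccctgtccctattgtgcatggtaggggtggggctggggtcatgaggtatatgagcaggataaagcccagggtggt
Mylpf: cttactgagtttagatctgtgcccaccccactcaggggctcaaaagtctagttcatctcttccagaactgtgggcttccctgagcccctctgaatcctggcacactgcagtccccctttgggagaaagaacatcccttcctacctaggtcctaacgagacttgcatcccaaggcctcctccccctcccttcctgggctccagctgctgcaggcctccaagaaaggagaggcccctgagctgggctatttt
Myl9: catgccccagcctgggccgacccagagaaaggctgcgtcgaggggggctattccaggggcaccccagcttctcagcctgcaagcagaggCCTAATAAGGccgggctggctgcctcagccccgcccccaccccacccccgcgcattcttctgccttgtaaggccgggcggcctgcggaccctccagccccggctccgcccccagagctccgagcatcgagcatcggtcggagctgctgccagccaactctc

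The box of Myl7 reads CCTTATTTGG and begins 61 bases before the start, that of Myl3 reads CCTTTTATGG and begins 85 before it, and that of Myl9 reads CCTAATAAGG and begins 161 before it. The 10 genes have 14 such windows in the RefSeq table, since Myl2 and Myl6 have 2 each and Myl10 has 3. Myl4 and Myl1, not printed, have 1 window each with 0 CArG boxes. The atrial and fast skeletal genes shown were therefore a choice. A CArG box was found on either strand in 4 of the 14, the fourth being CCTTATATGG, 50 bases before 1 of the starts of Myl6. Among all 32851 mouse windows of this length 1.47% hold one. The MEF2 motif was found in 0 of the 14 and in 2.92% of all windows. The E-box CANNTG was found in 8 of the 14 and in 66.2% of all, and TATAAA in 2 of the 14 and in 12.4% of all. No 2 of the CArG, MEF2 and TATAAA matches overlap in these windows. A match is a description of these letters and not evidence of binding.

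**Figure D1:**
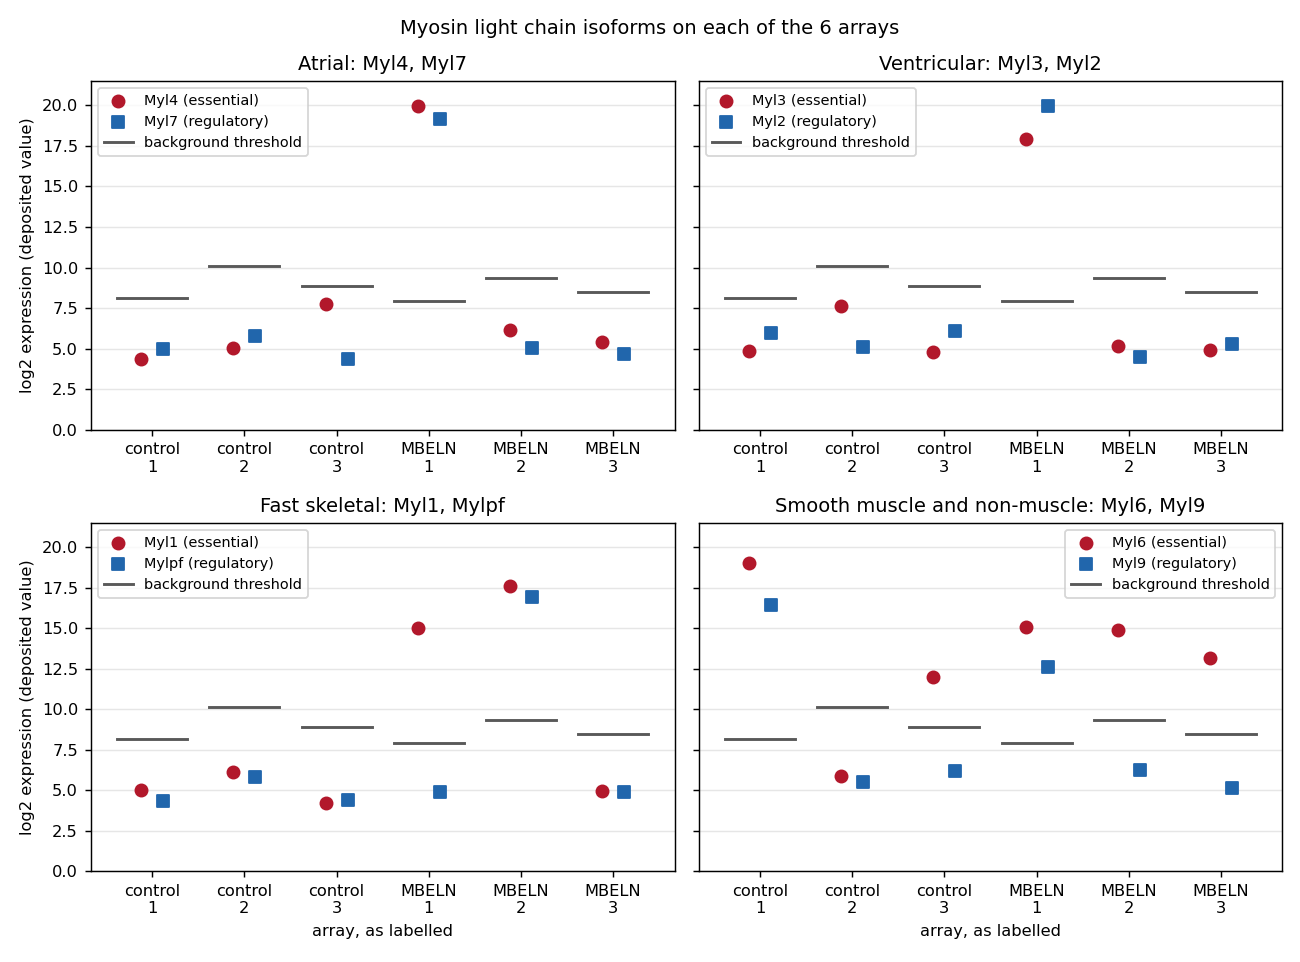
Deposited log2 expression (vertical axis) of the 8 light chains of the 4 isoform classes on each array (horizontal axis). Points are single arrays, and grey bars are the background threshold of each array. Myl4, Myl7, Myl3 and Myl2 lie above a bar on MBELN 1 only, Mylpf on MBELN 2 only, Myl1 on MBELN 1 and 2, Myl9 on control 1 and MBELN 1, and Myl6 on every array but control 2.

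Both atrial light chains were high on MBELN 1 and below background on the other 5 arrays. Myl4, the atrial essential chain (probe set TC1100001728.mm.2), was at 4.36, 5.03 and 7.75 on control 1, 2 and 3 and at 19.93, 6.16 and 5.38 on MBELN 1, 2 and 3. The value on MBELN 1 is the highest that array holds, shared by 37 probe sets, so it is a lower limit. Myl7, the atrial regulatory chain (TC1100002156.mm.2), was at 4.95, 5.80 and 4.38 on the control arrays and at 19.15, 5.01 and 4.66 on the MBELN arrays. In both genes MBELN 1 stands alone, and the other 2 MBELN arrays lie within the range of the control arrays. Of the values below background, that of Myl4 on control 3 came nearest to its threshold, 1.14 log2 units under it.

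The ventricular pair was also above background on MBELN 1 and on no other array. Myl3, the ventricular essential chain (TC0900001468.mm.2), was at 4.83, 7.64 and 4.80 on the control arrays and at 17.93, 5.18 and 4.92 on the MBELN arrays. Myl2, the ventricular regulatory chain (TC0500001379.mm.2), was at 5.96, 5.09 and 6.07 on the control arrays and at 19.93, 4.45 and 5.27 on the MBELN arrays, again with the highest value of the array on MBELN 1. All 4 cardiac light chains therefore stood out on the same array and on no other. Measured against the higher of its own value and the threshold on each other array, MBELN 1 was at least 9.82 log2 units higher for Myl4, 9.04 for Myl7, 7.82 for Myl3 and 9.82 for Myl2. These are comparisons of single arrays, with no replicate.

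Markers other than the light chains were read beside these values. Of the 6 atrial markers, 5 were above background on MBELN 1, among them the natriuretic peptide gene Nppa at 19.93, sarcolipin (Sln), which inhibits the calcium pump, at 19.58, and the growth factor gene Bmp10 at 14.34. The exception was Gja5, an atrial gap junction gene, at 6.93. On the other arrays 0 of the 6 were above background except on control 3, where Fgf12 was at 14.56. On control 1, Lbh was 1 ventricular marker of 5 above background. Of the 5, 3 were above background on MBELN 1: Myh7 at 13.90, Hey2 at 8.34 and Lbh at 11.38. Irx4, a ventricular transcription factor, was at 7.14 and Kcne1 at 4.97, both under the threshold of 7.93. Slow skeletal fibres share Myl2 and Myl3 with ventricle. Their slow troponin genes Tnni1 and Tnnt1 were at 4.22 and 7.32 on MBELN 1, below background. Tnnc1, which slow fibres and heart share, was at 18.57 there. Tnni1 was above background on control 1 alone, at 12.33, and Tnnt1 on no array.

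The fast skeletal pair did not move as 1. Mylpf, the fast regulatory chain (TC0700001837.mm.2), was at 4.34, 5.81 and 4.42 on the control arrays and at 4.89, 16.91 and 4.89 on the MBELN arrays. MBELN 2 stood alone, at least 6.81 log2 units over every other array on the scale used above. Myl1, the fast essential chain (TC0100002497.mm.2), was at 5.04, 6.13 and 4.23 on the control arrays and at 15.03, 17.57 and 4.96 on the MBELN arrays. It was thus high on MBELN 2, as was Mylpf, and also on MBELN 1, where Mylpf was 3.04 log2 units under the threshold. Myl1 lay 2.54 higher on MBELN 2 than on MBELN 1.

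Other fast muscle genes were read on the same arrays. Of 11 fast skeletal markers, light chains left out, 9 were above background on MBELN 2 and 2 on MBELN 1. Those 2 were Acta1, skeletal actin, at 10.83, and Ckm, muscle creatine kinase, at 14.40, and both genes are also used by heart. Myh4 and Tnnt3, a fast myosin heavy chain and the fast troponin T, were at 18.78 and 18.40 on MBELN 2 and at 5.05 and 5.18 on MBELN 1. Of the Myl1 and Mylpf pair, then, only Myl1 was above background on MBELN 1, where Myh4 and Tnnt3 were not. How much heart or skeletal RNA contributes to the Myl1 value on MBELN 1 was not tested.

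The smooth muscle regulatory chain followed the array with colon genes, and the essential chain was broader. Myl9 (TC0200002399.mm.2) was at 16.45, 5.49 and 6.19 on the control arrays and at 12.60, 6.24 and 5.16 on the MBELN arrays. Control 1 was highest, MBELN 1 lay 3.85 log2 units lower, and the other 4 arrays were below background. All 10 smooth muscle markers measured, Myl9 left out, were above background on control 1, and 8 were on MBELN 1. On MBELN 2 there were 2, on MBELN 3 there was 1 (Mylk), and on control 2 and 3 there were 0. Acta2 and Des were the highest of them on MBELN 1, the array with heart markers, at 16.15 and 15.77. How much heart or smooth muscle RNA contributes to the values on MBELN 1 was not tested. Calponin (Cnn1), which binds actin in differentiated smooth muscle, was at 19.68 on control 1 and at 9.62 on MBELN 1, and Actg2, the enteric smooth muscle actin, at 19.47 and 6.69, the second value below background.

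Myl6 (TC1000003145.mm.2) was at 19.01, 5.91 and 11.98 on the control arrays and at 15.07, 14.88 and 13.14 on the MBELN arrays. It was above background on 5 of 6 arrays and missed only on the flat control 2. From highest to lowest the order was control 1, MBELN 1, MBELN 2, MBELN 3, control 3 and control 2. MBELN 1 and MBELN 2 differed by 0.19 log2 units, a comparison of single arrays with no replicate. The SD of 1.06 among the 3 MBELN arrays includes both of them and cannot judge that difference. Control 1 lay 3.94 above the next array. Myl9 was below background on control 3, MBELN 2 and MBELN 3, and Myl6 was 3.09, 5.54 and 4.67 over the threshold there. Of this pair, only Myl6 was measured on those arrays.

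The last pair was measured on no array. Myl6b, an essential chain of slow muscle and non-muscle cells that lies next to Myl6 in the genome (TC1000003146.mm.2), was at 5.40, 6.32 and 5.72 on the control arrays and at 5.99, 5.43 and 5.36 on the MBELN arrays. Its neighbour Myl6 spanned 13.1 log2 units over the same arrays, and Myl6b spanned 0.959. Myl10, a regulatory chain described in lymphocyte precursors (TC0500001607.mm.2), was at 4.80, 4.95 and 4.94 on the control arrays and at 4.87, 4.49 and 4.98 on the MBELN arrays. Vpreb1 and Igll1, the surrogate light chain genes of B cell precursors, were also below background on all 6 arrays. Of the 5 B cell precursor markers measured, Ebf1, which other cell types also use, was above it, at 9.53 on control 1 and 11.21 on MBELN 1, and Cd79a and Pax5 were not. Values below background have no order.

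Counted over all 60 values of the 10 genes, 14 were above background, and 0 would be if the threshold were the highest negative control of each array. Of the 14, 7 came from MBELN 1, 3 from MBELN 2, 2 from control 1 and 1 each from control 3 and MBELN 3. Control 2 gave 0. Among all probe sets the share above background was 27.7% for MBELN 1, 14.3% for MBELN 2, 26.0% for control 1, 20.7% for control 3 and 23.1% for MBELN 3. Over the 6 arrays, 8 of the 10 genes were above background at least once, against 42.8% of all probe sets, and 5 of the 10 on exactly 1 array, against 15.8%. By chain, 4 of 5 essential and 3 of 5 regulatory genes were above background on MBELN 1, 1 and 1 on control 1, 2 and 1 on MBELN 2, and 1 and 0 on control 3 and on MBELN 3.

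The gap between a gene's highest array and the next had a median of 7.12 log2 units over the 10 genes and of 0.884 over all 22206 probe sets. It was at least 5 units for 5 of the 10 genes and for 5.04% of all probe sets. Those 5 genes were Myl2 (13.86), Myl7 (13.35), Myl4 (12.18), Mylpf (11.10) and Myl3 (10.29, and 6.64 after quantile normalisation), and 4 of them were highest on MBELN 1, where 0.396% of all probe sets had such a gap. Since the next array was below background for each of the 5, a gap is a difference of values and not a measured fold. Myl6, Myl9 and Myl1 had gaps of 3.94, 3.85 and 2.54, and Myl6b and Myl10 of 0.33 and 0.04.

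**Figure D2:**
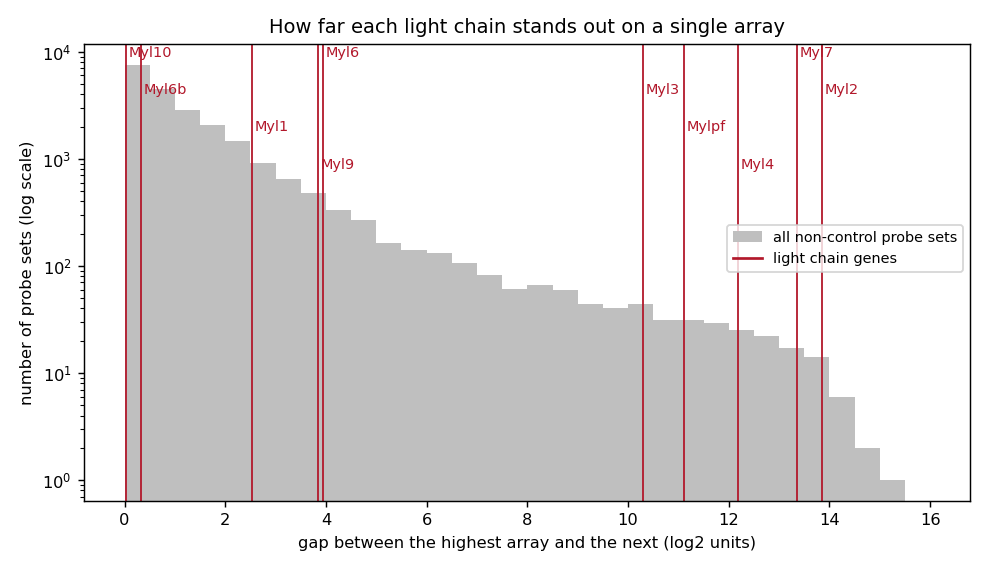
Number of probe sets (vertical axis, log scale) by the gap between the highest array and the next (horizontal axis, log2 units) for all 22206 non-control probe sets in grey, with the 10 light chains as red lines. The 4 cardiac chains and Mylpf lie above 10 units, in the sparse tail, and Myl10 and Myl6b lie near 0.

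The comparison the labels imply is MBELN against control. In limma's test 0.0% of the 22206 probe sets passed an adjusted p of 0.05, and 0 of the 10 light chains did; at an unadjusted p under 0.05 there were 422 probe sets (1.9%) and 0 light chains. Groups overlapped for all 10 genes, while 6.83% of all probe sets had groups that did not overlap. The log2 difference was above 0 for 7 of the 10 genes and for 49.6% of all probe sets, with a median of 3.82 over the 10 genes and -0.01 over all. Treatment and the tissue genes that each array carried cannot be told apart in these differences.

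Myl1 had the largest difference of the 10 over all 6 arrays, but not without MBELN 2, where Myl4 (6.94), Myl2 (6.90), Myl7 (6.86) and Myl3 (5.67) lay above it. The values of Myl4 and Myl2 on MBELN 1 are lower limits, so their differences are lower limits too. Its mean was 12.52 ± 6.67 (SD, n = 3) over the MBELN arrays and 5.13 ± 0.96 (n = 3) over the control arrays. The log2 difference was 7.39 (SE 3.23), with a limma adjusted p of 0.936. It was higher than every control array on 2 of 3 MBELN arrays. The difference was 6.13 without MBELN 1, 4.86 without MBELN 2 and 11.17 without MBELN 3. Because Myl1 was below background on every control array, a fold could be given only as a bound: at least 11.1-fold higher in MBELN, taking for each control array the higher of its value and its threshold. Of the 3 MBELN arrays 2 measured it above background, and the mean takes all 3. The value on MBELN 3, below background, entered as deposited, so the bound holds for the deposited values only.

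The cardiac chains were higher on average in MBELN, with standard errors close to the differences in size. The log2 difference was 4.78 (SE 4.0) for Myl4, 4.56 (SE 3.97) for Myl7, 4.18 (SE 4.17) for Myl2 and 3.59 (SE 3.64) for Myl3, with a limma adjusted p of 0.936 for each. Without MBELN 1 the same differences were 0.06, -0.21, -0.85 and -0.70. After quantile normalisation that of Myl3 was 2.29. The bounds, in the sense used for Myl1, were at least 2.73-fold for Myl4, 1.79-fold for Myl2, 1.48-fold for Myl7 and 1.23-fold for Myl3. All were higher in MBELN, and each gene was measured on 1 of 3 MBELN arrays. The values on MBELN 2 and MBELN 3, below background, entered as deposited, so these bounds rest on MBELN 1 alone. Mylpf had a difference of 4.04 (SE 3.35), and of 0.03 without MBELN 2; no fold is printed for it, since its bound came out under 1.

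The smooth muscle pair had differences of opposite sign, neither past the threshold. Myl6 averaged 14.36 ± 1.06 (SD, n = 3) on the MBELN arrays and 12.30 ± 6.56 (n = 3) on the control arrays, a difference of 2.06 (SE 3.18), of -1.13 without the flat control 2 and of -1.70 with array weights. Myl9 averaged 8.0 ± 4.02 on the MBELN arrays and 9.38 ± 6.13 on the control arrays (SD, n = 3 each), a difference of -1.38 (SE 3.51). It was 2.16 without control 1, the array with colon genes, 0.04 without MBELN 3, -3.68 without MBELN 1, -3.32 without control 2, -2.97 without control 3, -0.50 without MBELN 2 and -4.18 with array weights. After quantile normalisation it was -0.91. The limma adjusted p was 0.936 for Myl6 and 0.951 for Myl9. Myl6b and Myl10, not above background, had differences of -0.22 (SE 0.49) and -0.12 (SE 0.42).

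**Figure D3:**
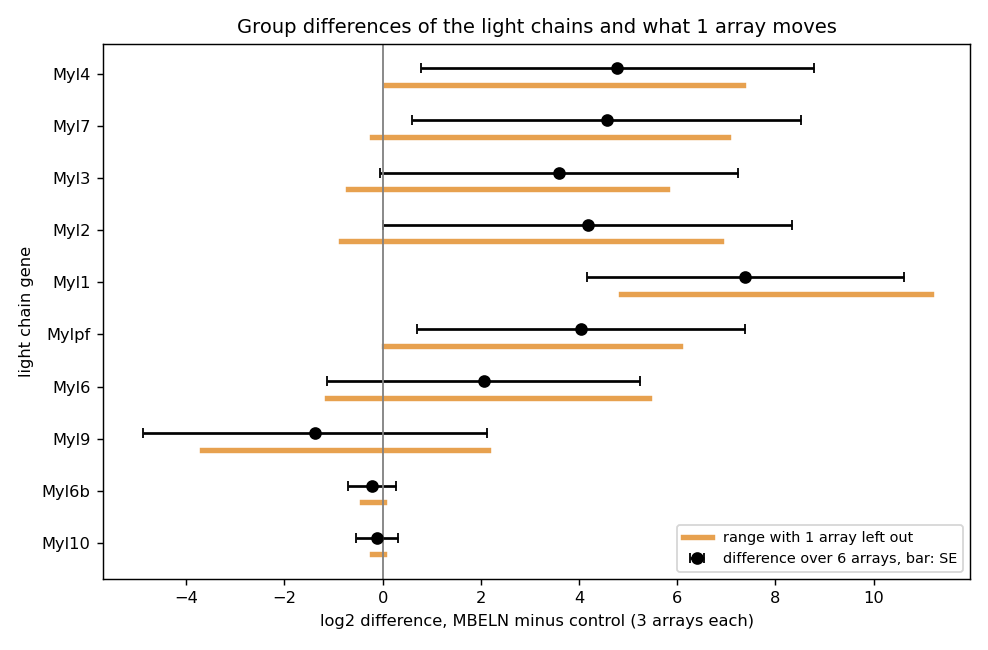
Log2 difference between MBELN and control arrays (horizontal axis, 3 arrays each) for the 10 light chains (vertical axis). Black points with bars are the limma difference and its SE, and orange lines span the values with each array left out in turn. The orange lines of Myl7, Myl3, Myl2, Myl6, Myl9, Myl6b and Myl10 cross 0, those of Myl4 and Mylpf end at 0.06 and 0.03, and that of Myl1 runs from 4.86 to 11.17.

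The light chains act with a set of kinases, phosphatases, heavy chains and filament proteins, listed with 42 genes of which 39 were measured. None of the 39 passed limma's adjusted test in either direction, and 0 had an unadjusted p under 0.05, against 1.9% of all probe sets. Of the 39, 31 were above background at least once, against 42.8% of all. Differences were above 0 for 27 of 39, against 49.6% of all, with a median of 1.29, against -0.01.

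Of the 3 kinases of the regulatory chain that were measured, Mylk3 was above background on the same array as the cardiac chains, Mylk on the arrays of Myl9 and 1 more, and Mylk2 on none. Mylk3, the cardiac light chain kinase, was at 12.61 on MBELN 1 and at 4.01 to 5.59 elsewhere, below background. Mylk, the smooth muscle and non-muscle kinase, was at 15.54, 5.71 and 5.16 on the control arrays and at 9.60, 5.18 and 10.98 on the MBELN arrays. It was thus above background on MBELN 3, where its smooth muscle substrate chain Myl9 was at 5.16 and not above background. Mylk2, the skeletal kinase, was highest on MBELN 2 at 7.52, under the threshold of 9.34, so it was above background on no array although Mylpf was at 16.91 there.

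The non-muscle regulatory chains Myl12a and Myl12b were broader, and so were 4 of the 7 genes of the phosphatase and its control. Myl12a was at 15.33, 7.03 and 11.97 on the control arrays and at 17.14, 12.92 and 12.60 on the MBELN arrays, and Myl12b at 17.56, 4.82 and 14.57 and at 14.65, 13.19 and 13.36. Both had the pattern of Myl6, above background on every array but control 2. The same held for Ppp1cb and Ppp1r12a, the catalytic and targeting subunits of myosin phosphatase, and for Rhoa and Rock1, which inhibit it. Ppp1r14a, a phosphatase inhibitor of smooth muscle, was above background where Myl9 was, at 11.88 on control 1 and 9.18 on MBELN 1. The other targeting subunits were narrower: Ppp1r12b was above background on control 3 and MBELN 1, and Ppp1r12c on control 1, control 3 and MBELN 1. Rock1 had the smallest unadjusted p of this list, averaging 12.04 ± 0.62 (SD, n = 3) with MBELN against 9.66 ± 2.85 (limma adjusted p of 0.936), and it was lowest on control 2, at 6.48. Calm2 and Calm3, calmodulin genes whose product activates the kinases, were highest on control 3, the array with brain markers, at 19.76 and 19.73.

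Heavy chains are the direct partners of the light chains. Myh6 and Myh7, the cardiac heavy chains, were at 19.32 and 13.90 on MBELN 1 and at no more than 5.22 elsewhere. Myh4, Myh8, Myh1 and Myh2, of fast and developing skeletal fibres, were at 18.78, 18.45, 13.71 and 10.45 on MBELN 2 and below background elsewhere. Myh11, the smooth muscle heavy chain, was above background on the arrays where Myl9 was, at 17.28 on control 1 and 9.49 on MBELN 1. Myh9, a non-muscle heavy chain, had the breadth of Myl6, above background on 5 of 6 arrays. The other non-muscle heavy chains did not: Myh10 was above it on control 3 and MBELN 1 and Myh14 on control 1.

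Thick filament proteins and myosin chaperones were read in the same way. Mybpc3, cardiac myosin-binding protein C, was at 14.77 on MBELN 1 and Mybphl, an atrial relative, at 12.55, and neither exceeded 6.75 elsewhere. Mybpc1, a skeletal form, was at 11.16 on MBELN 2. Myom1 and Myom2, which cross-link myosin at the M-band, were at 12.80 and 13.61 on MBELN 1 and at 9.01 and 7.53 on MBELN 2, both under the threshold of 9.34. Smyd1 and Unc45b, which help fold or assemble muscle myosin, were at 11.44 and 9.46 on MBELN 1. They were at 5.62 and 4.66 on MBELN 2, below background, although the fast heavy chains were high there.

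**Figure D4:**
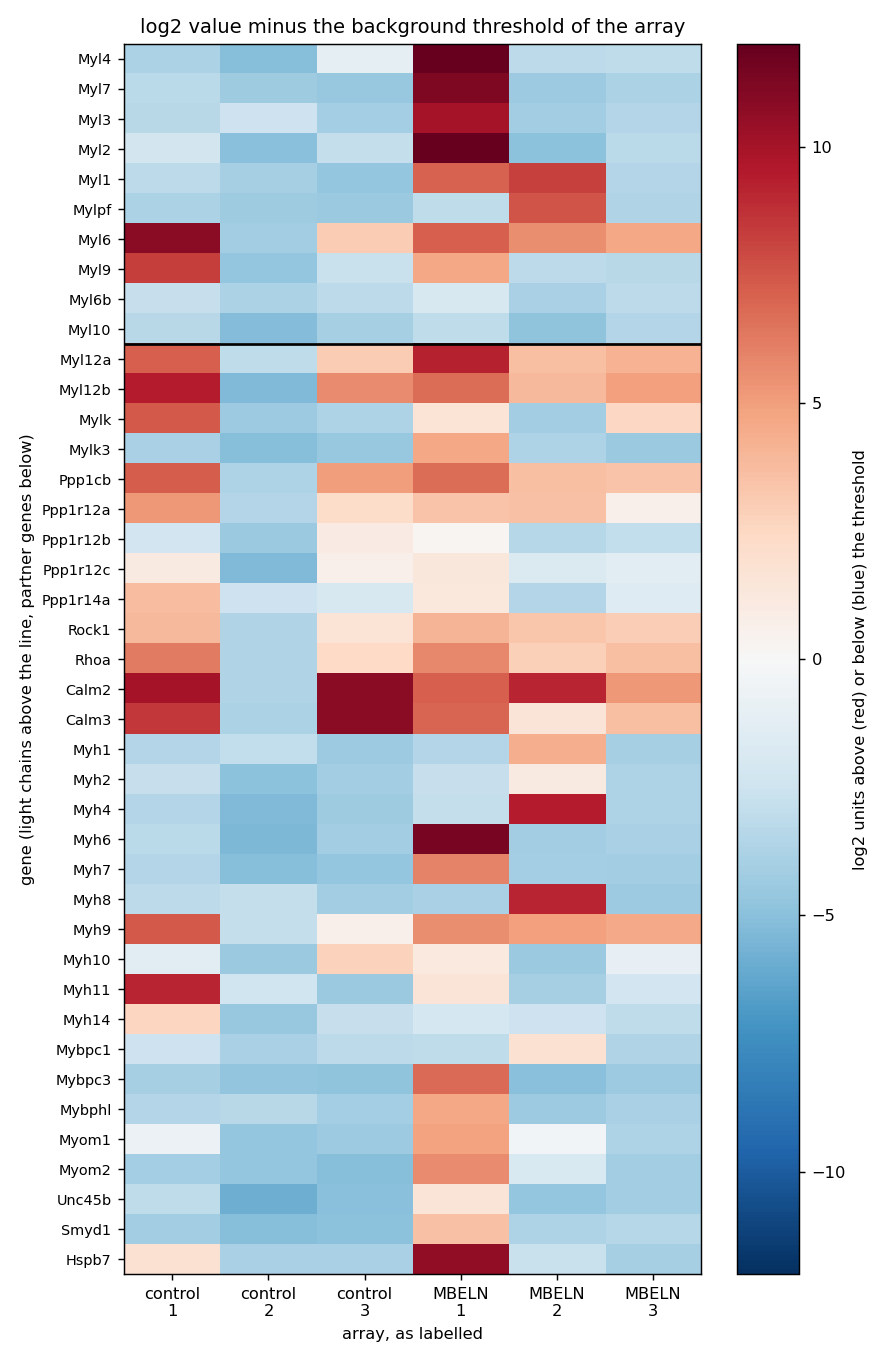
Log2 value minus the background threshold of the array (colour) for the 10 light chains, above the black line, and the 31 partner genes above background at least once, below it, on each array (horizontal axis). Control 2 is blue throughout, Myl4, Myl7, Myl3 and Myl2 are red on MBELN 1 only, together with Myh6, Myh7 and Mybpc3, and Myl6 is red on the other 5 arrays, as are Myl12a, Myl12b and Myh9.

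To show which genes shared a profile, the 3 nearest of 8547 other genes, those with a value above background on at least 1 array and predicted genes left out, were taken by the root mean square difference over the 6 arrays, after each gene was centred on its own mean. The names depend on the measure: by Pearson correlation 1 of the 24 nearest genes was the same. All genes were read on the same 6 arrays, so these are descriptions. Nearest to Myl7 were Nppa (0.45), Myh6 (0.48) and Tnni3, cardiac troponin I (0.66). Nearest to Myl4 were Nppa, Myh6 and Sln, at 1.05 to 1.09, and nearest to Myl2 were Myh6, Myl7 and Pln (phospholamban), at 0.64 to 0.87. Nearest to Myl3 were Ankrd1 (0.39), a cardiac ankyrin repeat protein, Tnnc1 (0.58) and Tnni3 (0.86).

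The other members had neighbours of other kinds. Nearest to Mylpf were Spink5 (0.29), Krtap7-1 (0.34) and Trp63 (0.39), which are genes of epidermis and hair and not of muscle. MBELN 2 carried both squamous and fast muscle genes, so a profile over these arrays cannot separate the 2 kinds. Nearest to Myl1 were Ttn (1.41), the giant sarcomere protein titin, Acta1 (1.91) and Tcap (2.58), each high on MBELN 1 and MBELN 2. Nearest to Myl9 were Pmp22 (0.72), Ccl21c (0.93) and Clic5 (0.94), and nearest to Myl6 were Eif2s2 (0.56), a translation initiation factor, Dstn (0.81), which severs actin, and Egln3 (1.05). Among the cardiac chains, the regulatory chains Myl7 and Myl2 were 0.85 apart. Pairs of a regulatory and an essential chain from different chambers were near that, with Myl7 and Myl3 0.90 apart and Myl2 and Myl4 1.14. The essential chains Myl4 and Myl3 were 1.78 apart. Within the pairs of 1 muscle, Myl4 and Myl7 were 1.36 apart, Myl3 and Myl2 1.51, Myl6 and Myl9 3.04, and Myl1 and Mylpf 3.68. Myl4 and Myl2 are at the ceiling of MBELN 1, which bears on their distances.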

How the data were processed

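Gene expression was measured on 6 Affymetrix arrays of samples labelled mouse colon, from 90 ng of total RNA. The authors deposited log2 expression values for 28846 rows, which run from 3.38 to 19.93. That scale was inferred: the top value equals log2 of 1000000. Per the submitters' processing notes the software was Transcriptome Analysis Console 4.0. How probes were summarised and arrays normalised, and the build, is not given in the sources used here. The 6640 control rows, 5222 of them negative controls, were left out of tests. Of 22206 probe sets, 19572 had 1 symbol in the platform annotation, 0 several and 2634 none. Values were used as deposited. Precision is limited by the number of arrays.

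The MBELN and control arrays were set against each other in limma 3.58.1 under R 4.3.3. The fit used lmFit and eBayes, 2-sided, with Benjamini-Hochberg over all 22206 probe sets, threshold 0.05 and no covariate. It was also run on simulated data with independent noise for each probe set, unlike tissue genes that move together on an array. That run therefore does not cover the kind of spread seen here. Python 3.11.15, numpy 2.4.6, pandas 2.3.3 and matplotlib 3.10.9 gave summaries and plots. The members, the partner, marker and housekeeping lists and the background threshold were chosen with earlier results of these data known. Named are all members, for each measured one its 3 nearest genes (predicted genes left out), up to 2 partners a list by unadjusted p, and defining markers; other partner genes were named after their values were seen. Marker lists leave the members out. Motifs were searched on both strands in the 250 bases before each RefSeq start; E-boxes and TATAAA are not capitalised. Alternatives were 2 filters on dim probe sets, array weights, a replicate block, a robust prior with an intensity trend, quantile normalisation, centring on equal medians, each array left out, and other background thresholds. All 6 sample columns were used.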

Additional observations from a re-analysis of the deposited data

How the results depend on the processing

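No alternative brought a probe set or a partner gene past the adjusted threshold in limma's test (0 in each of the 13 other fits, with 197 to 1380 probe sets at an unadjusted p under 0.05 and a smallest adjusted p between 0.319 and 1.0). With array weights Myl6 stood at -1.70 and Myl6b at 0.068, both turned in sign. With 1 array left out, the log2 difference ran from 0.06 to 7.33 for Myl4, -0.21 to 7.04 for Myl7, -0.70 to 5.80 for Myl3, -0.85 to 6.90 for Myl2, 4.86 to 11.17 for Myl1, 0.03 to 6.05 for Mylpf, -1.13 to 5.42 for Myl6, -3.68 to 2.16 for Myl9 (0.042 without MBELN 3), -0.43 to 0.033 (without control 2) for Myl6b and -0.22 to 0.029 (without MBELN 2) for Myl10. The count of 14 member values above background was 14 at the 90th percentile of the negative controls and after quantile normalisation. It was 13 at the 99th percentile, and 0 against the highest negative control. Without control 2, an alternative added after the data were seen, it could only stay 14, since control 2 gave 0 of them. The median gap of 7.12 was 4.92 after quantile normalisation and 7.29 with equal medians; the cause was not tested. By Pearson correlation 1 of the 24 nearest genes was the same. Each gene has 1 probe set, so averaging probe sets could change nothing and was not run. Same-numbered arrays deviated from their group means with r = 0.113, 0.119 and -0.0508, and differently numbered ones with r from -0.181 to 0.096. These deviations hold the different tissue genes of each array, so they cannot show whether the numbers pair the arrays. The main fit used no pairing. With the replicate block 0 probe sets passed, and 624 had an unadjusted p under 0.05 in limma's test. The filters left out Myl10, and Myl6b at the median. The median difference over all probe sets, -0.01 as deposited, was 0.11 with equal medians, 0.21 and 0.58 with the filters. For arrays, signal over background limits what can be said: values under the threshold have no order.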
